A study of Mus musculus with 12 samples.

Results

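The genes described here are 34 genes from the families that write, erase or read histone acetylation, though some act on other substrates. Their expression was profiled in mouse ventral hippocampus. They were picked by gene symbol and not by a measured value, though earlier results of these data were known. They are 11 zinc-dependent deacetylases (Hdac1 to Hdac11), 7 sirtuins, 10 acetyltransferases and 6 bromodomain proteins. The deposited table holds 54532 genes, and all 34 were among the 16915 genes with enough counts to be tested. There were 12 libraries in 4 groups of 3, all from mice labelled wild type (WT). Control mice had no treatment, the second group was exposed to CSDS, and the other 2 groups were exposed to SSDS, either with AAV8-eGFP (SSDS-GFP) or with knockdown of ACOT12 in the liver (SSDS-shACOT12). CSDS is the usual short form of chronic social defeat stress and SSDS of its subthreshold form, and the label TBG on both virus groups usually names a promoter active in hepatocytes. The labels spell out neither, and they give no strain, age or sex. ACOT12 is a thioesterase that splits acetyl-CoA into acetate and coenzyme A, and the series title concerns liver acetyl-CoA metabolism and acetate.

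Histone acetyltransferases move the acetyl group of acetyl-CoA onto lysines of histone tails, which is a mark of open and transcribed chromatin. Deacetylases remove it, the sirtuins with NAD as cosubstrate, and release acetate or acetyl-ADP-ribose. Bromodomain proteins bind acetylated lysines and bring in the transcription machinery or chromatin remodellers. In neurons the enzyme Acss2 can turn acetate back into acetyl-CoA in the nucleus, and several deacetylases are known for limiting memory-related transcription in the hippocampus.

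No member passed the test (adjusted p under 0.05 in edgeR) in any of the 3 comparisons, so what follows gives levels, differences and their errors. Library totals ran from 14656714 to 17694570 counts. On the first principal component of all tested genes, 3 libraries stood apart at one end: SSDS-shACOT12 3 at 63.1, SSDS-shACOT12 1 at 37.4 and SSDS-GFP 3 at 35.7. The other 9 were not a tight cluster and ran from -30.4 (Control 1) to 5.82 (SSDS-GFP 1). Genes of the mitochondrial genome took 3.23% and 4.31% of the counts in SSDS-shACOT12 1 and 3 and 6.31% to 9.24% elsewhere. The members varied between libraries of a group less than all tested genes did. Those include genes with fewer counts than any member, and within groups no set matched for expression was compared. The median SD of a member's log2 CPM (CPM being counts scaled to library size) was 0.0937 in Control, where all genes had 0.155, and 0.0878 in CSDS, where they had 0.157. It was larger with SSDS, at 0.168 against 0.246 in SSDS-GFP and 0.243 against 0.308 in SSDS-shACOT12. Whether replicates are separate animals is not labelled, so p-values measure only the spread between these libraries. Neuronal markers such as Snap25 and Syt1 were high in every library, with a sum of 6928 to 8698 CPM over 10 genes.

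The sequences just upstream of the start sites are shown for the member with the smallest p-value of all (Hdac4) and for the pair called in opposite directions when 1 knockdown library was left out (Kat2a and Sirt1), a choice made after the values were seen. They come from RefSeq on build GRCm38.p6, run 5′ to 3′ on the minus strand, and end at the start site or where an annotated exon begins. Capitals mark GGGCGG (a GC box), CCAAT and TGACG (the core of a cAMP response element) on either strand, and they overlap in Sirt1.
Hdac4: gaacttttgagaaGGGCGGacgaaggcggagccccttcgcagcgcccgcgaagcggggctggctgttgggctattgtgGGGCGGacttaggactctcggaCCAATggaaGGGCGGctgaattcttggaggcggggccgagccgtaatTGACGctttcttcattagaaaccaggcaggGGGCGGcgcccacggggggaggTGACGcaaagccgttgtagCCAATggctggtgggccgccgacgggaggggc
Kat2a: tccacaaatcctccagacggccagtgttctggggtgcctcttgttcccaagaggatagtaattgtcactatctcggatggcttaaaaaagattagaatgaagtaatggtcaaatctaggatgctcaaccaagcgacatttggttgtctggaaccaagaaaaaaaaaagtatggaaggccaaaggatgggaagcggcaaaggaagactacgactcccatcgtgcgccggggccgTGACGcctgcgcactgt
Sirt1: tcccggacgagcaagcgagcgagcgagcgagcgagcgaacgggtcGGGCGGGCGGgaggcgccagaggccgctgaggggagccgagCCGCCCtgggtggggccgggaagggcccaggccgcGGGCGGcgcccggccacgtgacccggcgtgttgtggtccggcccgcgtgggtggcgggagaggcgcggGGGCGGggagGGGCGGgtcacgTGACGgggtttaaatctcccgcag
The Hdac4 stretch (chr1:92180342-92180591) has 4 GC boxes, 2 CCAAT and 2 TGACG. The Kat2a stretch (chr11:100712468-100712717) has a single TGACG and none of the other motifs. The Sirt1 stretch (chr10:63339051-63339285, 235 bases) has 6 GC boxes and 1 TGACG, and its G and C content is 78.3% against 48.8% for Kat2a. Of the members, 29 had an entry, with 42 promoters in all, and a GC box was present in 61.9% of these against 32.7% of all 32851 promoters of 250 bases. CCAAT was in 33.3% of the members' promoters against 33.8% of all, and TGACG in 28.6% against 17.8%. The members' promoters were also richer in G and C, with a median of 62.2% against 52.4% of all. Their median number of CG pairs was 17.5 against 6. The part of this base content in the motif shares was not tested. The motifs are matches of letters and say nothing of binding. The RefSeq starts of Hdac4 and Sirt1 lie 15358 and 42669 bases inside the gene as the deposited table draws it, and counts per gene do not separate transcripts.

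Every member had at least 108 counts in every library. On the FPKM scale (fragments scaled by gene length and library size, which allows genes to be compared), the highest member was Hdac11, the sole class IV deacetylase, at 34.7 ± 4.91 (mean and SD, n = 12 libraries). It was followed by Sirt2 at 28 ± 3.11, a cytoplasmic deacetylase of tubulin that is abundant in myelinating cells, Hdac2 at 25.5 ± 2.81, Brd2 at 24.3 ± 1.71 and Hdac3 at 21.7 ± 2.55. Sirt2, Hdac2 and Brd2 each lay within an SD of the next in this order, while Hdac11 lay above Sirt2 by more than either SD. The lowest members were Sirt5, a mitochondrial desuccinylase, at 1.59 ± 0.218, Hdac9 at 2.23 ± 0.558 and Kat6b at 2.59 ± 0.498. Summed over each class, mean FPKM was 82.5 for the acetyltransferases, 66.6 for the bromodomain readers, 62.8 for class I, 59.6 for the sirtuins, 45.1 for classes IIb and IV, and 26.4 for class IIa. Hdac5 made up most of the class IIa sum, at 18 ± 3.13.

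**Figure D1:**
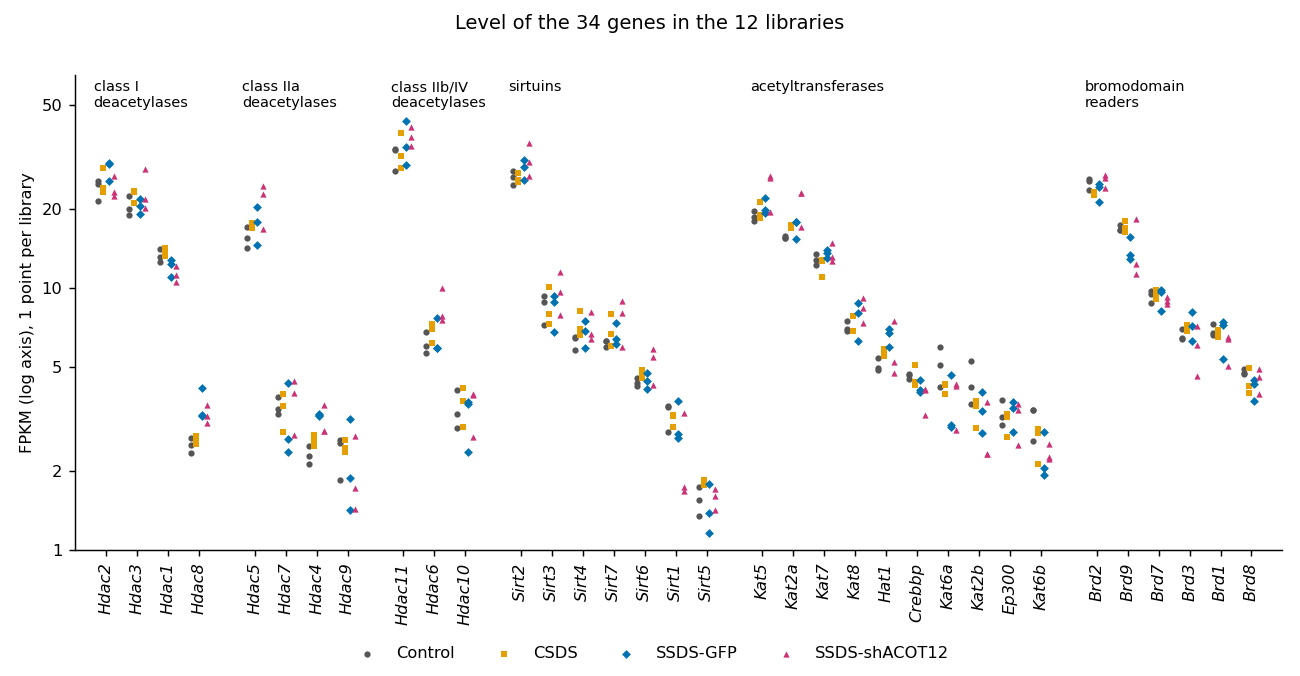
Expression of the 34 members in FPKM on a log axis, by class, with a point for each of the 12 libraries and colours for the 4 groups. The points of a gene lie close together beside the span between genes, which runs from 1.59 FPKM on average for Sirt5 to 34.7 for Hdac11.

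Across all 12 libraries the coefficient of variation of CPM had a median of 14.7% over the members, 20.1% over all genes tested and 15.8% over the 9088 genes in the members' range of expression. The steadiest members were Brd7, a subunit of a SWI/SNF remodeller (6.07%), Kat7, the acetyltransferase also called HBO1 (7.51%), and Brd2 (7.64%). The most variable were Hdac9 (24.3%), Kat2b (23.7%), Sirt1 (21.9%) and Kat6a (21.3%).

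CSDS against Control showed no member past the test. By edgeR's quasi-likelihood test 0 of 34 members had an adjusted p under 0.05, against 0% of all genes, and 0 of 34 had an unadjusted p under 0.05, against 5.87% (2.86% higher and 3.01% lower). The DESeq2 Wald test and limma also called none of them. An edgeR fit of only the 6 libraries compared, without the spread of the SSDS groups, also called 0 members. There 2 members had an unadjusted p under 0.05, as did 2535 of all 16325 genes tested. Of the members, 21 had a log2 fold change above 0 and 13 below, with a median of 0.05, beside 0.001 for all genes tested. Values of the 3 CSDS libraries did not overlap those of the 3 Control libraries for 5 members, 4 higher (Sirt4, Sirt5, Kat2a and Hat1) and 1 lower (Brd2), where 20.3% of all genes did not overlap (10.2% higher and 10.1% lower). The extremes were -0.37 for Kat2b and 0.21 for Sirt5.

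SSDS-GFP against Control gave the largest differences, with Hdac4 and Hdac8 higher and Kat6a and Kat6b lower. These libraries differ from Control by the virus and by SSDS, which cannot be told apart. No member passed the adjusted threshold in edgeR, which 0.0946% of all genes did. At an unadjusted p under 0.05 stood 5 of 34 members, 3 higher (Hdac4, Hdac8, Hat1) and 2 lower (Kat6b, Kat6a), where the share over all genes was 15.2% (8.92% higher and 6.23% lower). The DESeq2 Wald test called 2 members, Hdac4 and Hdac8, where it called 527 of the 14597 genes given an adjusted p. Limma called 0 members, where it called 12 of all 16915 genes. Groups did not overlap for 7 members, 4 higher (Hdac4, Hdac8, Hat1, Hdac2) and 3 lower (Brd9, Brd8, Crebbp), where 23.9% of all genes did not (12.5% higher and 11.4% lower). The edgeR count at an unadjusted p under 0.05 and the count without overlap are both close to what their shares give for 34 genes. On each side of 0 lay 17 members, with a median of -0.001 beside 0.01 for all genes. This comparison shares its Control libraries with CSDS against Control. When edgeR was fitted to only the 6 libraries compared, 6 members and 2917 of 16207 genes had an unadjusted p under 0.05.

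What the liver knockdown adds under SSDS was asked by setting SSDS-shACOT12 against SSDS-GFP. Here 0 of 34 members passed the adjusted threshold, against 0% of all genes, and 2 of 34 had an unadjusted p under 0.05, against 4.53% (1.84% higher and 2.68% lower). The DESeq2 Wald test and limma called 0 members too. The 2 members were Hdac6 and Kat2a, both higher, and every member's adjusted p was at least 0.803. These p-values use a spread pooled over all 12 libraries, while the members' median SD was largest in SSDS-shACOT12. With only the 6 libraries compared in the edgeR fit, 0 members had an unadjusted p under 0.05, so neither Hdac6 nor Kat2a did. Of all 16075 genes tested there, 183 had such a p. For no member were the 2 groups free of overlap, where 4.81% of all genes were (2.23% higher and 2.58% lower). Signs split into 21 above and 13 below 0, with a median of 0.08 beside 0.01 for all genes. That median was -0.001 without SSDS-GFP 1, 0.01 without SSDS-shACOT12 1 and -0.01 without the 3 libraries that stood apart, with 17, 17 and 16 members above 0. In the last of these the knockdown group is SSDS-shACOT12 2 alone. Leaving out SSDS-shACOT12 2 changed this picture: 12 members then had an unadjusted p under 0.05 and 2 were called, Sirt1 lower and Kat2a higher, where 4456 of all 17292 genes tested had such a p and 985 were called, so the shift was one of the whole table. The 2 remaining libraries of that group are 2 of the 3 that stood apart on the first component. SSDS-shACOT12 2 itself had the highest sum of the 10 ventral hippocampus markers, at 574 CPM against 132 to 343 in the other libraries. It also had the lowest sum of the 11 dentate gyrus granule cell markers, at 437 CPM. The part of these in the shift was not tested.

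**Figure D2:**
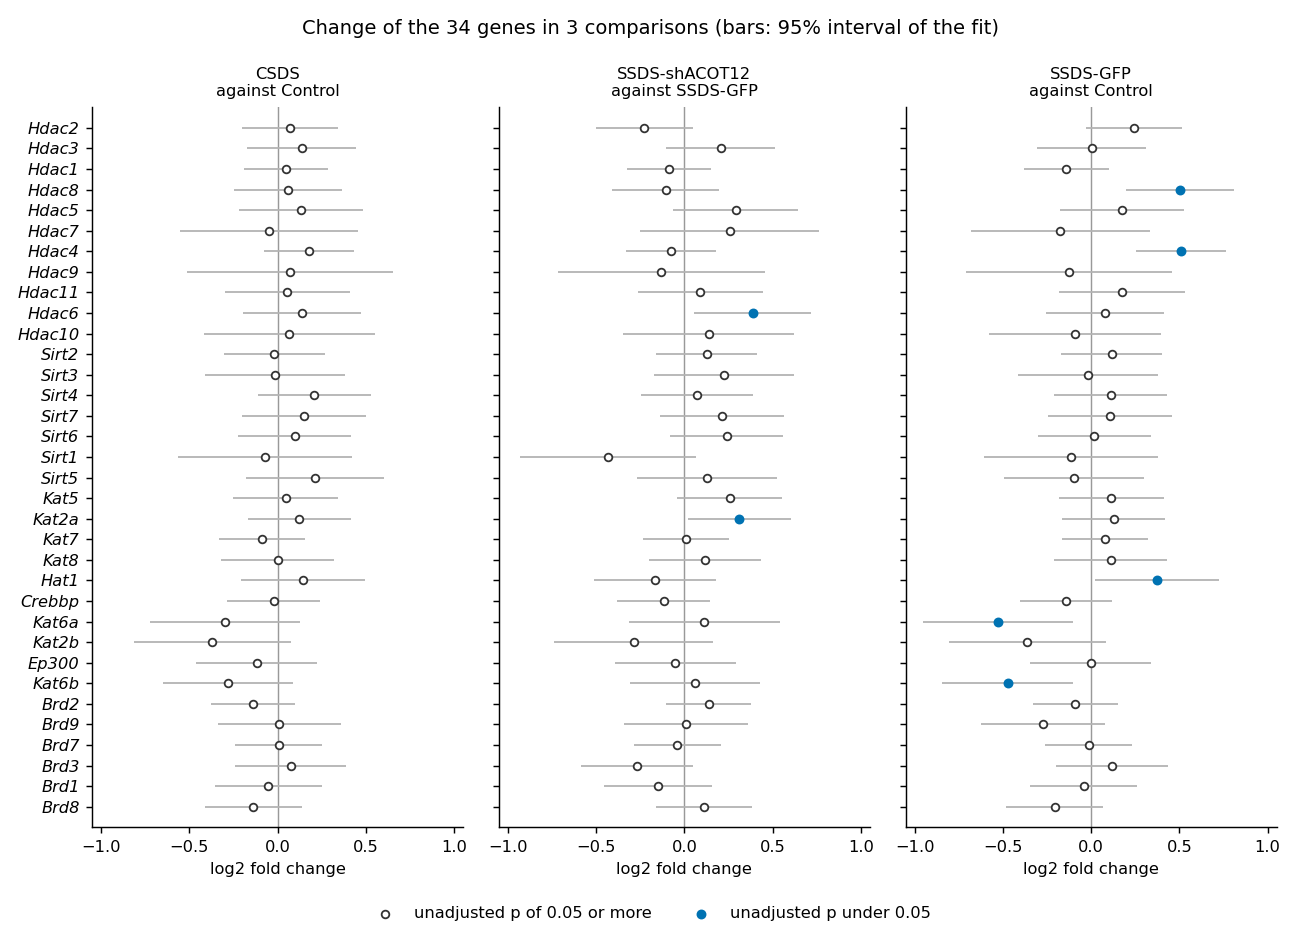
Log2 fold change of each member in the 3 comparisons, with 95% intervals from the edgeR fit (3 libraries a group). The spread behind the intervals is pooled over all 12 libraries. Most intervals cross 0; those of Hdac4, Hdac8, Kat6a, Kat6b and Hat1 in SSDS-GFP against Control and of Hdac6 and Kat2a in SSDS-shACOT12 against SSDS-GFP do not, and none of the members passed the adjusted threshold.

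Hdac1 and Hdac2 are the catalytic subunits of the Sin3, NuRD and CoREST repressor complexes. Hdac1 (ENSMUSG00000028800, chromosome 4, 129516104 to 129542713, minus strand) stood at 49.3, 43.9 and 45.5 CPM in Control, 46, 48.8 and 48.7 under CSDS, 38.3, 42.5 and 44.8 with SSDS-GFP and 42.4, 38.6 and 37.4 with SSDS-shACOT12. Of the 6 SSDS values, all but that of SSDS-GFP 3 lay under the lowest value of the other groups. The difference of SSDS-GFP from Control, 3 libraries each, was -0.14 ± 0.11 log2 units (SE from the fit of all 12 libraries, adjusted p = 0.571). Hdac2 (ENSMUSG00000019777, chromosome 10, 36974544 to 37001889, plus strand) stood at 113, 97.4 and 115 CPM in Control, 109, 128 and 105 under CSDS, 136, 133 and 116 with SSDS-GFP and 103, 119.8 and 107 with SSDS-shACOT12. SSDS-GFP was above Control with no overlap, 128 ± 10.6 CPM in SSDS-GFP and 109 ± 9.69 in Control (mean ± SD), by 0.24 ± 0.13 (unadjusted p = 0.0765, adjusted p = 0.379), and SSDS-shACOT12 was below SSDS-GFP by a log2 fold change of -0.23 ± 0.13 with overlap. In CSDS both genes lay close to Control, at 0.05 and 0.07.

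Hdac3, the enzyme of the NCoR and SMRT corepressors (ENSMUSG00000024454, chromosome 18, 37935844 to 37954988, minus strand), stood at 81.8, 91.1 and 76.8 CPM in Control, 94.4, 85.1 and 95 under CSDS, 83.5, 76.9 and 89.7 with SSDS-GFP and 89.8, 81.2 and 117 with SSDS-shACOT12. SSDS-shACOT12 3 was the highest and SSDS-shACOT12 2 among the lowest, so the difference from SSDS-GFP of 0.21 ± 0.14 had an interval of -0.10 to 0.51. Hdac8, a class I enzyme that works outside those complexes (ENSMUSG00000067567, chromosome X, 102284639 to 102505359, minus strand), stood at 11.6, 12.3 and 13 CPM in Control, 13, 13.1 and 12.4 under CSDS, 16.1, 15.8 and 20.5 with SSDS-GFP and 16, 14.8 and 17.8 with SSDS-shACOT12. Every SSDS library lay above every library of the other 2 groups, and SSDS-GFP 3 was the highest. Hdac8 averaged 17.4 ± 2.63 CPM in SSDS-GFP and 12.3 ± 0.681 in Control, a log2 fold change of 0.50 ± 0.14 with unadjusted p = 0.00336 and adjusted p = 0.139 in edgeR. The DESeq2 Wald test called Hdac8 at an adjusted p of 0.0468, and without SSDS-GFP 3 the edgeR log2 fold change was 0.38. Between the 2 SSDS groups Hdac8 differed by -0.11 ± 0.14, with an interval of -0.41 to 0.20.

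Class IIa deacetylases shuttle between nucleus and cytoplasm with neuronal activity and repress MEF2 target genes. Hdac4 (ENSMUSG00000026313, chromosome 1, 91928779 to 92195699, minus strand) stood at 34.3, 39.8 and 36.1 CPM in Control, 41.6, 43.5 and 39.7 under CSDS, 53.1, 51.2 and 52.6 with SSDS-GFP and 46, 56.5 and 46.3 with SSDS-shACOT12. The 3 SSDS-GFP libraries lay within a narrow span, well above all Control and CSDS libraries, and SSDS-shACOT12 overlapped them. Hdac4 averaged 52.3 ± 0.998 CPM in SSDS-GFP and 36.7 ± 2.84 in Control, a log2 fold change of 0.51 ± 0.12 with unadjusted p = 0.000827 and adjusted p = 0.116 in edgeR. The call turned on the method: the DESeq2 Wald test gave an adjusted p of 0.0122, and edgeR without the 3 libraries that stood apart gave 0.0425 at an unchanged log2 fold change of 0.51. In CSDS the difference from Control was 0.18 ± 0.12 with overlap, by 39.7 in CSDS 3 against 39.8 in Control 2. With the knockdown, Hdac4 differed from SSDS-GFP by -0.08 ± 0.12 (interval -0.33 to 0.18). In this bulk tissue, a change in the number of cells of a type and a change in RNA per cell cannot be told apart.

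Hdac4 and Hdac8 were also the only members whose 6 SSDS libraries all lay above the 6 libraries without SSDS. The lowest SSDS value of Hdac4 was 46.0 CPM against a highest of 43.5 without, and for Hdac8 it was 14.8 against 13.1. Over all genes this held for 1.25% in the higher direction and 0.721% in the lower, and no member was lower throughout. All 6 SSDS libraries also had a virus and the other 6 had none, so SSDS and virus cannot be told apart here. Marker lists of cell types also differed between groups, though not along this split by SSDS and virus. In both lists given here the CSDS range overlapped that of SSDS-GFP and not that of Control. The 11 dentate gyrus granule cell markers, among them Prox1 and Dsp, summed to 980 to 1225 CPM in Control, 648 to 825 in CSDS, 719 to 822 in SSDS-GFP and 437 to 830 in SSDS-shACOT12. All 11 were measured and none was at 0 throughout. Against Control, 11 of them lay below 0 in CSDS and 10 in SSDS-GFP, with C1ql2 the exception at 0.12. The 11 inhibitory neuron markers summed to 951 to 1043 CPM in Control, 1138 to 1242 in CSDS, 1031 to 1364 in SSDS-GFP and 1321 to 1732 in SSDS-shACOT12. The 10 ventral hippocampus markers summed to 151 to 233 CPM in Control, 230 to 318 in CSDS, 230 to 343 in SSDS-GFP and 132 to 574 in SSDS-shACOT12. Against Control, 8 of these 10 lay above 0 and 2 below in CSDS (median log2 fold change 0.56). All 10 lay above 0 in SSDS-GFP (median 0.79). The part of these lists in the values of Hdac4 and Hdac8 was not tested.

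**Figure D3:**
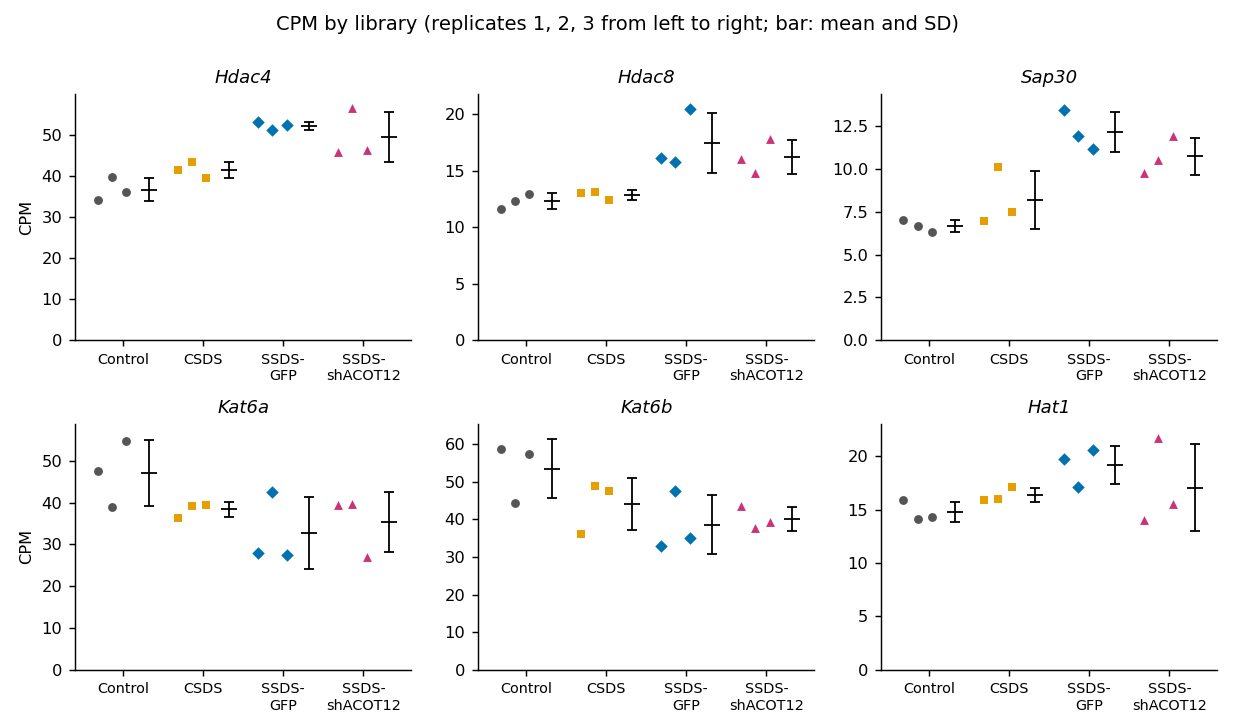
CPM of Hdac4, Hdac8, Kat6a, Kat6b, Hat1 and the Sin3 subunit Sap30 in each library, replicates 1 to 3 from left to right in each group, with the mean and SD as a bar. For Hdac4 and Hdac8 all 6 points with SSDS and virus lie above all points without either, while for Kat6a and Kat6b the value of SSDS-GFP 2 reaches into the Control range.

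Hdac5, known for its response to chronic stress and antidepressants in rodent brain (ENSMUSG00000008855, chromosome 11, 102194432 to 102230166, minus strand), stood at 127, 138 and 151 CPM in Control, 149.9, 149 and 157 under CSDS, 159, 128 and 182 with SSDS-GFP and 204, 148 and 221 with SSDS-shACOT12. SSDS-shACOT12 3, SSDS-shACOT12 1 and SSDS-GFP 3 were the highest 3, and the other SSDS libraries lay at 128 to 159 CPM, beside 127 to 157 without SSDS. The knockdown difference was 0.29 ± 0.16 (unadjusted p = 0.0983), and 0.05 without those 3 libraries, where the knockdown group is a single library taken to vary like the other groups. Hdac7, which is typical of endothelial cells, ran from 16.2 to 30.7 CPM with the same 3 libraries on top, and differed by -0.18 ± 0.24 between SSDS-GFP and Control. The 10 endothelial markers, among them Cdh5 and Pecam1, summed to 297 to 357 CPM in Control and 262 to 294 in SSDS-GFP. Against Control, 7 of them lay below 0 in SSDS-GFP, the lowest being Pecam1 at -0.78, and 3 above, the highest being Cldn5 at 0.21, and their part in it was not tested. Hdac9 ran from 21.2 to 46.3 CPM, with the same 3 libraries at the bottom and SSDS-GFP 2 at the top. Its intervals were the widest of the members, from -0.51 to 0.66 in CSDS against Control.

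Hdac6, the cytoplasmic deacetylase of tubulin (ENSMUSG00000031161, chromosome X, 7930120 to 7947889, minus strand), had the smallest p-value of the knockdown comparison. It stood at 35.5, 39.9 and 33.1 CPM in Control, 36.1, 40.6 and 42.8 under CSDS, 34.7, 34.3 and 45.6 with SSDS-GFP and 46.3, 44.1 and 59.5 with SSDS-shACOT12. SSDS-shACOT12 3 was the highest library, and SSDS-GFP 3, at 45.6, lay between the other 2 knockdown libraries. Hdac6 averaged 49.95 ± 8.31 CPM in SSDS-shACOT12 and 38.2 ± 6.40 in SSDS-GFP, a log2 fold change of 0.39 ± 0.15 with unadjusted p = 0.0264 and adjusted p = 0.803. Its log2 fold change ran from 0.25 to 0.53 as each library was left out, and was 0.36 without the 3 libraries that stood apart. Against Control, SSDS-GFP differed in Hdac6 by 0.08 ± 0.16 and CSDS by 0.14 ± 0.15, both with overlap.

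Hdac10, which acts on polyamines, was among the lower members at 8.09 to 14.2 CPM and differed by at most 0.14 in size in the 3 comparisons. Hdac11 (ENSMUSG00000034245, chromosome 6, 91156665 to 91174692, plus strand), which removes long fatty acyl groups from lysines, stood at 109, 131 and 130.5 CPM in Control, 151, 110.4 and 124 under CSDS, 135, 113 and 170.0 with SSDS-GFP and 162, 134 and 149 with SSDS-shACOT12. SSDS-GFP 3 was the highest and Control 1 the lowest. Groups overlapped throughout, with 0.17 ± 0.16 for SSDS-GFP against Control, 0.09 ± 0.16 for the knockdown and 0.06 ± 0.16 for CSDS.

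Sirt1, a nuclear sirtuin that deacetylates histones and transcription factors (ENSMUSG00000020063, chromosome 10, 63319005 to 63381704, minus strand), had the largest negative value of the knockdown comparison. It stood at 19.2, 15.3 and 18.8 CPM in Control, 15.8, 17.5 and 17.4 under CSDS, 14.5, 19.7 and 15 with SSDS-GFP and 9.15, 17.8 and 9.54 with SSDS-shACOT12. SSDS-shACOT12 1 and 3 were the lowest of all 12 libraries, while SSDS-shACOT12 2 lay among the Control values. Sirt1 averaged 12.2 ± 4.90 CPM in SSDS-shACOT12 and 16.4 ± 2.85 in SSDS-GFP, a log2 fold change of -0.43 ± 0.23 with unadjusted p = 0.0838, adjusted p = 0.803 and an interval of -0.93 to 0.07. Without SSDS-shACOT12 2 it was -0.82 with an adjusted p of 0.0227 in edgeR, and without the 3 libraries that stood apart it was 0.06. The result therefore rests on which knockdown libraries enter. In SSDS-GFP and CSDS Sirt1 was near Control, at -0.11 ± 0.23 and -0.07 ± 0.23.

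Sirt2 (ENSMUSG00000015149, chromosome 7, 28766735 to 28788661, plus strand) stood at 135, 142 and 125 CPM in Control, 139, 129.8 and 129 under CSDS, 148, 129.6 and 158 with SSDS-GFP and 156, 135 and 185 with SSDS-shACOT12. The highest 3 were SSDS-shACOT12 3, SSDS-GFP 3 and SSDS-shACOT12 1, and the remaining 9 lay within 125 to 148 CPM. Differences were 0.12 ± 0.13 for SSDS-GFP, 0.13 ± 0.13 for the knockdown and -0.02 ± 0.13 for CSDS, each with overlap.

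The mitochondrial sirtuins Sirt3, Sirt4 and Sirt5 ran from 40.6 to 70.3, 14.1 to 19.8 and 7.09 to 11.3 CPM. Sirt4 and Sirt5 were above Control in all 3 CSDS libraries, by 0.21 ± 0.15 and 0.21 ± 0.18, with adjusted p-values of 0.912 and 0.922. For Sirt5 the gap was 10.8 CPM in CSDS 2 against 10.7 in Control 2. The nuclear Sirt6 and the nucleolar Sirt7 ran from 11.4 to 16.8 and 30.8 to 46.9 CPM, and had their highest values in SSDS-shACOT12 3 and 1. In the knockdown comparison 6 of the 7 sirtuins lay above 0 and Sirt1 below, with a class median of 0.13, where 8795 of all 16915 genes lay above 0. Without the 3 libraries that stood apart the signs of 5 turned: Sirt1 was at 0.06, and Sirt2, Sirt4, Sirt6 and Sirt7 lay at -0.03, -0.07, -0.05 and -0.07.

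Kat2a and Kat2b are the paralogous acetyltransferases GCN5 and PCAF of the SAGA and ATAC complexes, and their log2 fold changes had opposite signs in all 3 comparisons without passing the test. Kat2a (ENSMUSG00000020918, chromosome 11, 100704746 to 100712465, minus strand) stood at 55.2, 55.4 and 54.1 CPM in Control, 59.4, 60.4 and 59.6 under CSDS, 63, 53.6 and 63.2 with SSDS-GFP and 81.8, 59.3 and 82.1 with SSDS-shACOT12. Control and CSDS were each tightly grouped, with CSDS above Control in every library, and SSDS-shACOT12 1 and 3 stood far above the rest. Kat2a averaged 74.4 ± 13 CPM in SSDS-shACOT12 and 59.9 ± 5.52 in SSDS-GFP, a log2 fold change of 0.31 ± 0.13 with unadjusted p = 0.0366 and adjusted p = 0.803. Without SSDS-shACOT12 2 it was 0.44 with an adjusted p of 0.0369 in edgeR, and without the 3 libraries that stood apart it was 0.03. For CSDS the difference was 0.12 ± 0.13 and for SSDS-GFP 0.13 ± 0.13.

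Kat2b (ENSMUSG00000000708, chromosome 17, 53566861 to 53672720, plus strand) stood at 26.1, 20.6 and 17.7 CPM in Control, 18.2, 14.2 and 17.4 under CSDS, 16.7, 19.4 and 13.8 with SSDS-GFP and 11.6, 17.8 and 11.6 with SSDS-shACOT12. Control 1 was the highest of the 12 libraries, and SSDS-shACOT12 1 and 3 the lowest. It had the smallest p-value of CSDS against Control, with -0.37 ± 0.21 (unadjusted p = 0.0964, adjusted p = 0.874, interval -0.81 to 0.08). Without Control 1 that log2 fold change was -0.20. SSDS-GFP differed from Control by -0.36 ± 0.21, and the knockdown from SSDS-GFP by -0.29 ± 0.21.

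Kat5 is the enzyme of the TIP60 complex (ENSMUSG00000024926, chromosome 19, 5603017 to 5610094, minus strand). It stood at 38.1, 36.7 and 39.7 CPM in Control, 37.2, 42.6 and 38.6 under CSDS, 39.3, 39.8 and 44.9 with SSDS-GFP and 53.8, 39.2 and 55.1 with SSDS-shACOT12. SSDS-shACOT12 3 and 1 were the highest, SSDS-GFP 3 followed, and the other 9 libraries lay within 36.7 to 42.6 CPM. The knockdown difference of 0.26 ± 0.14 (unadjusted p = 0.0853) was -0.005 without those 3 libraries. Kat7 ran from 61.3 to 83.4 CPM, and Kat8, which acetylates histone H4, from 18 to 27.

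Kat6a and Kat6b, the MOZ and MORF acetyltransferases, were the members lowest in SSDS-GFP relative to Control. Kat6a (ENSMUSG00000031540, chromosome 8, 22859535 to 22943259, plus strand) stood at 47.6, 39.1 and 54.8 CPM in Control, 36.4, 39.3 and 39.4 under CSDS, 27.9, 42.7 and 27.6 with SSDS-GFP and 39.4, 39.6 and 27.1 with SSDS-shACOT12. SSDS-GFP 1 and 3 and SSDS-shACOT12 3 were low, SSDS-GFP 2 lay above Control 2, and CSDS sat at the lower edge of Control. The log2 fold change was -0.53 ± 0.20 with unadjusted p = 0.0187 and adjusted p = 0.232. Kat6b (ENSMUSG00000021767, chromosome 14, 21481434 to 21672478, plus strand) stood at 58.6, 44.5 and 57.5 CPM in Control, 36, 48.8 and 47.5 under CSDS, 32.9, 47.5 and 35.2 with SSDS-GFP and 43.7, 37.6 and 39.2 with SSDS-shACOT12. Its SSDS-GFP 1 and 3 were the lowest of all libraries, and SSDS-GFP 2 overlapped Control. The log2 fold change was -0.47 ± 0.17 with unadjusted p = 0.0159 and adjusted p = 0.218. In CSDS both were also below 0, at -0.30 ± 0.20 and -0.28 ± 0.17, against the same Control libraries, and with the knockdown they were near SSDS-GFP, at 0.11 ± 0.20 and 0.06 ± 0.17.

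Across all genes the difference of SSDS-GFP from Control went with gene length. Its median log2 fold change was 0.20 over the shortest eighth of all tested genes by deposited gene length and -0.14 over the longest. Kat6b, with 16826 bases, and Hdac4, with 15813, are the longest members. Once each library's trend with length was removed, Kat6b was at -0.29 and Kat6a at -0.42, while Hdac4 was at 0.70. In CSDS against Control the medians were 0.14 and -0.09.

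Ep300 and Crebbp are the large coactivators that bind CREB and many other factors. Ep300 (ENSMUSG00000055024, chromosome 15, 81585351 to 81652077, plus strand) stood at 46.9, 43.4 and 53.7 CPM in Control, 38.6, 46.1 and 47.8 under CSDS, 50.2, 52.4 and 40.9 with SSDS-GFP and 52.6, 49.1 and 36.7 with SSDS-shACOT12. Its groups overlapped in every comparison, and SSDS-GFP differed from Control by -0.0039 ± 0.16 with an interval of -0.35 to 0.34. Crebbp (ENSMUSG00000022521, chromosome 16, 4081328 to 4213997, minus strand) stood at 62.2, 63.5 and 63.7 CPM in Control, 57.9, 59.2 and 69.4 under CSDS, 54.9, 60.4 and 56.3 with SSDS-GFP and 56.4, 56 and 45.7 with SSDS-shACOT12. All 3 SSDS-GFP libraries lay below all 3 Control libraries, by a log2 fold change of -0.14 ± 0.12 (adjusted p = 0.604), and SSDS-shACOT12 3 was the lowest library. That value was 0.03 once the length trend was removed. Hat1, which acetylates newly made histone H4, ran from 14 to 21.7 CPM and averaged 19.1 ± 1.80 CPM in SSDS-GFP and 14.8 ± 0.934 in Control, a log2 fold change of 0.37 ± 0.16 with unadjusted p = 0.0379 and adjusted p = 0.2997.

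The 6 bromodomain readers had log2 fold changes between -0.27 and 0.14 in all 3 comparisons. Brd2 and Brd3 belong to the BET family that ties acetylated chromatin to transcription. Brd2 ran from 155 to 201 CPM and was lower than Control in all 3 CSDS libraries, by a log2 fold change of -0.14 ± 0.11 (adjusted p = 0.922). Brd3 ran from 34.8 to 59.3 CPM and differed by -0.27 ± 0.15 with the knockdown, or -0.01 without the 3 libraries that stood apart. Brd9 and Brd8, subunits of a SWI/SNF remodeller and of the TIP60 complex, were below Control in all 3 SSDS-GFP libraries, by -0.27 ± 0.16 and -0.21 ± 0.13, with adjusted p-values of 0.443 and 0.460. In SSDS-shACOT12 Brd9 ranged from 80.8 to 130.2 CPM, a wider span than over all other libraries. Brd1, a scaffold of acetyltransferase complexes, and Brd7 lay within 43.4 to 63.3 and 42.8 to 52.3 CPM.

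Several members had their extremes in the same libraries. For 7 of 34 members (Hdac5, Hdac6, Hdac7, Sirt2, Kat2a, Kat5 and Kat8) the 3 highest libraries were SSDS-shACOT12 1, SSDS-shACOT12 3 and SSDS-GFP 3, and for Hdac9 and Kat2b these were the 3 lowest. The share of all genes with these extremes was not counted, so the counts are not shown to be particular to the members. They are the 3 libraries that stood apart on the first component of all genes, of which SSDS-shACOT12 1 and 3 also had the lowest mitochondrial share. The part of either in the members' values was not tested.

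**Figure D4:**
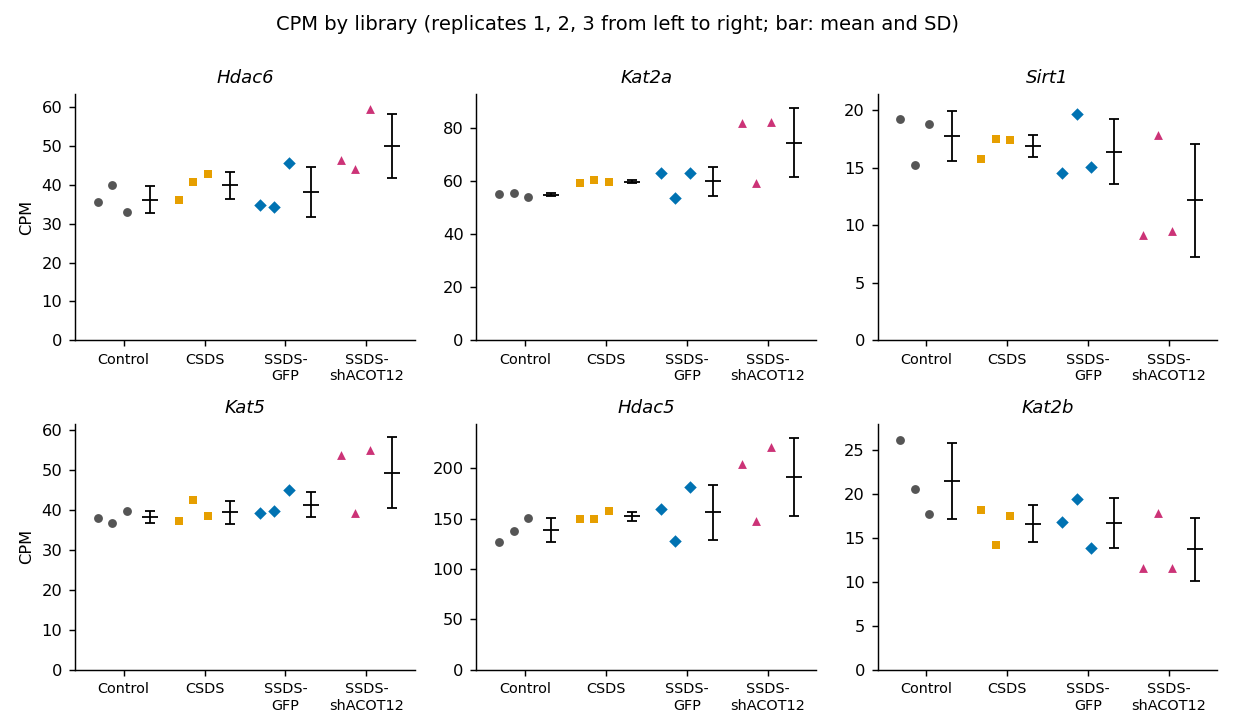
CPM of Hdac6, Kat2a, Sirt1, Kat5, Hdac5 and Kat2b in each library, replicates 1 to 3 from left to right in each group, with the mean and SD as a bar. In SSDS-shACOT12, replicates 1 and 3 lie on the same side of replicate 2 for all 6 genes, and replicate 2 lies near the other groups.

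The partners of these enzymes were described by 6 further lists, of which 137 of 138 genes were tested and none was called by edgeR in any comparison. At an unadjusted p under 0.05, CSDS against Control had 1 higher (Yeats4) and 2 lower (Ncor1, Rcor2), the knockdown had 0 by edgeR, and SSDS-GFP against Control had 5 higher and 4 lower. Over all genes these shares were 5.87%, 4.53% and 15.2%, which for 137 genes would be more than the 3, 0 and 9 seen. Medians over the 137 were -0.05, 0.01 and -0.002. The largest difference was in Sap30, a subunit of the Sin3 complex around Hdac1 and Hdac2 (ENSMUSG00000031609, chromosome 8, 57482707 to 57487860, minus strand). It stood at 7.03, 6.68 and 6.30 CPM in Control, 6.95, 10.1 and 7.49 under CSDS, 13.4, 11.9 and 11.2 with SSDS-GFP and 9.77, 10.5 and 11.9 with SSDS-shACOT12. Every SSDS-GFP library was above every Control and CSDS library, with a log2 fold change against Control of 0.86 ± 0.18, unadjusted p = 0.000297 and adjusted p = 0.0939.

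Among the 38 deacetylase corepressor subunits, SSDS-GFP against Control also had Brms1 at 0.54 ± 0.16 and, below 0, Rcor3 at -0.58 ± 0.19 and Ncor1 at -0.33 ± 0.14. Ncor1, the scaffold that holds Hdac3, stood at 220.1, 207 and 252 CPM in Control, 162, 191 and 176 under CSDS, 192, 194 and 153 with SSDS-GFP and 191, 184 and 157 with SSDS-shACOT12. Its 3 highest libraries were the 3 Control libraries, and CSDS was below Control by a log2 fold change of -0.36 ± 0.14 (unadjusted p = 0.0196, adjusted p = 0.849). The smallest p-value of this list in the knockdown comparison was that of Mier1, which recruits Hdac1 and Hdac2, at -0.57 ± 0.29.

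The 40 acetyltransferase complex subunits had their smallest p-values in Morf4l2, at 0.35 ± 0.12 in SSDS-GFP, Tada2b, at -0.27 ± 0.13 in CSDS, and Ing2, a PHD finger protein also found in Sin3 complexes, at -0.23 ± 0.11 with the knockdown. Of the 10 other acetyltransferases, Taf1 was at -0.26 ± 0.13 in SSDS-GFP, the steroid receptor coactivator Ncoa1 at -0.29 ± 0.15 in CSDS and Clock at -0.38 ± 0.24 with the knockdown. Among the 30 other acetyl-lysine readers, Yeats4 was at 0.39 ± 0.13 in SSDS-GFP and 0.29 ± 0.13 in CSDS, and the bromodomain ATPase Atad2 at -0.56 ± 0.29 with the knockdown. In SSDS-GFP this list also had Mllt1 at 0.35, Ash1l at -0.45 and Zmynd11 at -0.28 with unadjusted p under 0.05.

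The enzymes that supply acetyl-CoA bear on the acetate named in the series title. Acss2, which makes acetyl-CoA from acetate (ENSMUSG00000027605, chromosome 2, 155517948 to 155585724, plus strand), stood at 51.8, 53.1 and 47.4 CPM in Control, 53.9, 51 and 52.7 under CSDS, 43.5, 45.3 and 42.9 with SSDS-GFP and 51.4, 44.9 and 57 with SSDS-shACOT12. All 3 SSDS-GFP libraries were below all Control and CSDS libraries, by a log2 fold change against Control of -0.21 ± 0.11 (unadjusted p = 0.0917, adjusted p = 0.407). With the knockdown Acss2 differed from SSDS-GFP by 0.22 ± 0.11 (unadjusted p = 0.0791, adjusted p = 0.803), and SSDS-shACOT12 2 overlapped SSDS-GFP. Acly, which makes acetyl-CoA from citrate, stood at 108, 113 and 115 CPM in Control, 121, 122 and 108 under CSDS, 121, 144 and 116 with SSDS-GFP and 128, 137 and 158 with SSDS-shACOT12. SSDS-GFP was above Control in every library, by 0.19 ± 0.12 (adjusted p = 0.499), and the knockdown differed from SSDS-GFP by 0.15 ± 0.12 with overlap.

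The citrate carrier Slc25a1 had the smallest p-value of the 8 supply genes with the knockdown, at 0.40 ± 0.21, and in CSDS, at 0.22 ± 0.21. Of the 11 tested genes that make or use NAD, the cosubstrate of the sirtuins, none had an unadjusted p under 0.05. Nampt, the enzyme of NAD salvage, was at -0.38 ± 0.20 with the knockdown, and stood at 51.9 and 47.7 CPM in SSDS-shACOT12 1 and 3 and 80.0 in SSDS-shACOT12 2. Nmnat1 was at 0.34 ± 0.25 in CSDS and Parp1, which consumes NAD, at -0.30 ± 0.17 in SSDS-GFP. Red cell genes such as Hbb-bs and Alas2 summed to 332 to 386 CPM in CSDS and 87.8 to 120 in Control, over 5 of 6 genes measured, and their part in the CSDS values was not tested.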

How the data were processed

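Raw counts per gene were deposited by the authors for 12 libraries of total RNA (NEBNext Ultra RNA kit, 1 µg input, per the labels' protocols). The submitters' processing notes name HISAT2 2.0.5, featureCounts 1.5.0-p3, mm10 and, without a version, DESeq2. The annotation release and strand setting are not given in the sources used here, and without strand a gene and an antisense partner cannot be told apart. FPKM and gene length (in bases) were deposited by the authors in the same table, and the FPKM were used for levels between genes and in the limma alternatives. All 34 members are in GENCODE M21, 32 with the same coordinates.

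The members and lists were chosen with earlier results of these data known. Of the 54532 genes, 16915 passed filterByExpr at a total of at least 15 and a minimum count of 10 (edgeR 4.0.16, R 4.3.3), with TMM scaling. The quasi-likelihood fit of group on all 12 libraries (8 residual degrees of freedom) gave 3 contrasts, with Benjamini-Hochberg adjustment over all genes and a threshold of 0.05. All adjusted p-values are from this edgeR fit unless DESeq2 or limma is named. Errors of log2 fold changes are SE from the spread pooled over all 12 libraries, errors of CPM are SD (n = 3), intervals cover 95%. The script was tested on simulated data. Library totals of 14656714 to 17694570 counts gave every member at least 108 counts in each library.

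Values per library are given for the 4 members with the smallest p of each contrast and a fixed set (Hdac1, Hdac2, Hdac3, Hdac5, Hdac11, Sirt1, Sirt2, Kat2a, Kat2b, Ep300, Crebbp). Of each further list, the gene with the smallest p of each contrast is named, with Acss2 and Acly. Sap30, Ncor1, Brms1, Rcor3, Mllt1, Ash1l, Zmynd11, Rcor2, Nampt and the promoters were given more room after their values were seen. What a shared replicate number means is not labelled. Deviations from the group means of same-numbered SSDS-GFP and SSDS-shACOT12 libraries correlated at 0.196 to 0.419, all over 0.1, so these groups were also compared as paired, with the number as a block.

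Alternatives were DESeq2 1.42.0 (size factors, and Wald test), a fit of the 6 libraries compared alone, no filter, a stricter one (3 libraries with at least 50 counts), the block, each library left out, and limma 3.58.1 on log2 FPKM with 0.1 or 1 added. Those chosen after seeing the data were mitochondrial genes left out, the length trend of each library removed (lowess, span 0.3), the 3 libraries apart left out, and the block in the 6 SSDS libraries alone.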

Additional observations from a re-analysis of the deposited data

How the results depend on the processing

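No value of a member was called with the opposite sign under any setting run. Signs were as reported in 545 of 578 alternative values for CSDS against Control, 570 of 612 for the knockdown and 537 of 578 for SSDS-GFP against Control, with 0, 2 and 3 of them called. The members called were 2 by the DESeq2 Wald test (Hdac4, Hdac8) and 1 without the 3 libraries that stood apart (Hdac4) for SSDS-GFP against Control, and 0 to 2 as single libraries were left out for the knockdown (2, Sirt1 and Kat2a, without SSDS-shACOT12 2). Leaving out those 3 libraries leaves 1 knockdown library, which is taken to vary like the other groups.

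Genes called over the whole table depended more on the setting. For CSDS against Control (0 as reported, 993 at an unadjusted p under 0.05) they were 6 by DESeq2, 132 with no filter, 84 in a fit of only the 6 libraries, 30 without the 3 libraries apart and 0 to 1 with single libraries left out. For the knockdown (0 as reported, 766 unadjusted) they were 108 with no filter, 20 without the 3 libraries and 0 to 985 with single libraries left out, 985 without SSDS-shACOT12 2. For SSDS-GFP against Control (16 as reported, 13 of them higher) they were 527 by DESeq2, 608 with no filter, 34 in the fit of 6 libraries, 216 without the 3 libraries and 4 to 15 with single libraries left out. With the replicate block, 9 genes were called for SSDS-GFP against Control and 0 in the other comparisons, and the paired fits changed no call of a member. The cause of these shifts was not tested. With 3 libraries a group, the 95% intervals of the members' log2 fold changes in CSDS against Control reached 0.24 (Hdac1) to 0.58 (Hdac9) to either side of the estimate.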
